A study of Mus musculus with 2 samples.

Results

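The immediate early genes outside the AP-1 family were followed here as a named set of 10 genes, read on every array of the study: the zinc finger transcription factors *Egr1*, *Egr2* and *Egr3*, the orphan nuclear receptors *Nr4a1* and *Nr4a2*, the immediate early response genes *Ier2*, *Ier3* and *Ier5*, and the regulators of mRNA decay and cell growth *Zfp36* and *Btg2*. The members were listed by gene name, with earlier results of these data already known, so the counts below only describe this set. All 10 of the 10 were found among the 20655 genes with a named probe, read by 12 of the 39419 probes. The cells were RAW264.7, a macrophage line from the ascites of an adult male BALB/c mouse with a tumor induced by Abelson murine leukemia virus. A culture treated with vehicle control and a culture treated with IR-61 were compared, both for 24 h in DMEM with serum and with no LPS or other stimulus named in the labels. IR-61 is a near-infrared fluorescent cyanine dye with a positive charge, which the study describes as a drug that gathers in macrophage mitochondria, and the legend of the array experiment gives its dose as 10 μM. Each condition had 1 culture on 1 Agilent array with a single dye, so no test between the conditions could be made, no p-value is given, and every difference below is that between 2 arrays. A lower signal from fewer cells of a kind and from less RNA per cell cannot be told apart in such bulk RNA.

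Immediate early genes are switched on within minutes of a stimulus by transcription factors that already wait in the cell, with no need for new protein. In macrophages, Toll-like receptor ligands, growth factors and stress reach them through the ERK and p38 kinases, which act on serum response factor (SRF) with its ternary complex partners and on CREB. Their mRNAs are short-lived, many of them through AU-rich elements, so that the level at a late time reflects continuing transcription and decay and not the early burst.

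Both arrays lay on the same slide. The 75th percentile of the log2 intensity was 10.30 for vehicle and 10.79 for IR-61, and each scaled value below has it subtracted, so that a difference (IR-61 minus vehicle) is relative to the array as a whole. Of 16885 genes measured well above background on both arrays, the median log2 difference was 0.10 with an SD across genes of 0.44. With IR-61 present, a signal reduced at least 2-fold was read for 1.39% of them (235 genes) and one increased at least 2-fold for 1.99% (336 genes). With scaling by the median the split was 295 lower and 249 higher. Of 9 macrophage markers 8 had a named probe, and all 8 were well above background on both arrays. Their summed intensity, unscaled like the other sums of marker genes given here, was 208042 with vehicle and 410252 with IR-61. After scaling, their median log2 difference was 0.36, with 3 lower and 5 higher. The 5 fibroblast markers *Col1a1*, *Col1a2*, *Col3a1*, *Dcn* and *Pdgfra* were well above background on both arrays too, with a summed intensity of 64731 and 110195, and a median log2 difference of 0.10. Well above background on both arrays were also 4 of 5 T cell markers (summed intensity 2112 and 3064), 5 of 5 B cell markers (907 and 746), 4 of the 4 neutrophil markers with a named probe (11938 and 20185) and 3 of 5 epithelial and endothelial markers (971 and 1398). *Cd3g*, *Epcam* and *Cdh1* were not. The part of these markers in the results was not tested.

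All 10 members were well above background on both arrays, without an outlier flag or a saturated spot. The members split. In IR-61-treated cells *Ier2*, *Btg2* and *Nr4a1* had at least 2-fold less signal, and *Ier3* and *Zfp36* were lower by 1.73-fold and 1.68-fold. *Egr1*, *Egr2* and, by the brighter of its probes, *Ier5* were slightly higher. In all, 3 of the 10 members (30%) were lower by 2-fold or more against 1.39% of all measured genes, and 0 were higher by 2-fold or more against 1.99%. In either direction, 7 members were lower and 3 were higher, where 38.8% of all measured genes were lower. The median log2 difference of the members was −0.61, beside 0.10 for all measured genes. Without scaling between the arrays, where the median of all genes was 0.59, 5 members were lower and 5 higher. The count of members above the median of all genes was 3 with and without scaling. With the mean over the probes of a gene it was 2, with 8 members lower and 2 higher.

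**Figure D1:**
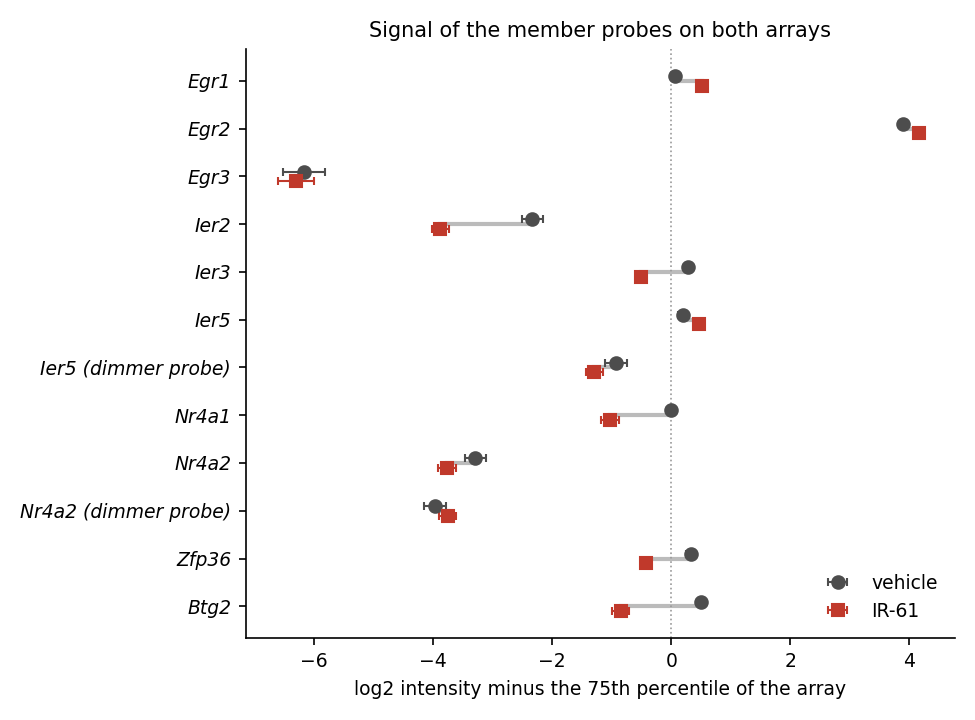
Scaled log2 intensity of the 12 probes of the 10 members on the vehicle array (circles) and the IR-61 array (squares), with bars for the SD between spots at that signal level. The wide steps to the left are those of Ier2, Btg2 and Nr4a1, and the steps to the right are those of Egr1, Egr2, the brighter probe of Ier5 and the dimmer probe of Nr4a2. The place of a probe on the axis depends on the probe, so only the step within a row is a comparison.

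Each member probe was printed as 1 spot per array. The error that can be measured is therefore that of other probes, those printed 10 times and with at least 8 usable spots, on the same array: above a log2 intensity of 10 the SD between spots was 0.070 with vehicle and 0.063 with IR-61, between 6 and 10 it was 0.18 and 0.15, and under 6 it was 0.35 and 0.30. The scanner software itself gives the member spots an error between 10.0% and 19.1% of their signal, which for a difference comes to an SD of about 0.20 on the log2 scale for all members but *Egr3*, where it is 0.39. Neither error covers the difference between cultures. By either error, 9 of the 10 differences were larger than 1 SD, and that of *Egr3* was smaller. In the area of each array around the member spots, within 10 rows and 10 columns, the median difference of the 296 to 348 spots was between 0.013 and 0.11, close to the median of all genes.

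Among the transcription factors, the EGR proteins bind GC-rich sites through their zinc fingers, *Egr1* as a general early responder and *Egr2* also as a factor of differentiating and alternatively activated macrophages. *Egr1* had an intensity of 1325 with vehicle and 2524 with IR-61, a scaled log2 difference of 0.44 and a 1.36-fold higher signal (SD between spots 0.095). This was the highest difference of the set, yet 2893 positions from the top of the 16885 genes, so that 82.9% of all measured genes lay below it. *Egr2* had an intensity of 18693 with vehicle and 31601 with IR-61, a log2 difference of 0.27 and a 1.21-fold higher signal. That difference was close to the error of the scanner software, 0.20, and 68.8% of all genes lay below it. *Egr3* was dim, with an intensity of 17.5 for vehicle and 22.4 for IR-61, where the lowest signal counted as well above background on the vehicle array was 12.8. Its log2 difference of −0.13 was within the SD between spots of 0.46, and without scaling it was 0.36. None of the EGR genes reached 2-fold under any of the ways of processing tried. Of their relatives, *Egr4* was well above background on the IR-61 array alone, at least 1.05-fold higher there, and both NAB genes, whose proteins bind EGR factors and repress them, were lower: *Nab1* by 0.72 and *Nab2* by 0.32 on the log2 scale. The dimmer probe of *Nab2* was at −0.44. Without scaling *Nab1* was at −0.23 and *Nab2* at 0.17.

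The promoter of *Egr2* is shown because CArG boxes, the sites that SRF binds, are the best known elements of this gene family and *Egr2* did not follow the lower members. RefSeq promoter windows of 250 bases before and 50 bases after the start of transcription were matched by symbol for 7 of the 10 members, as 11 windows. None was found for *Egr1*, *Egr3* and *Ier2*. The 250 bases before the start are printed, 5′ to 3′. The motifs, 6 kinds in all, were searched on both strands. Capitals mark the CArG box (CC, then a run of A or T, then GG), the cyclic AMP response element (CRE) TGACGTCA, its core TGACG, which also lies within the full CRE, the AP-1 site TGANTCA, the EGR site GCGNGGGCG and the NF-κB site. In all 32851 windows of the table the share with each was 1.63%, 1.79%, 20.8%, 7.81%, 5.55% and 4.51%. A match is a description of the letters and no proof of binding.
Egr2 promoter, GRCm38.p6 chr10:67537619-67537868 (plus strand): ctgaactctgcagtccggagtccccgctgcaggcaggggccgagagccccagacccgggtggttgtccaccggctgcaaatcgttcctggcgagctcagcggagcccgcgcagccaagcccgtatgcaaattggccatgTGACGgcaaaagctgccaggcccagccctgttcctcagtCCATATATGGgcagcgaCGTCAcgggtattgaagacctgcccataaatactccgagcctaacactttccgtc
Of the 5 start sites listed for *Egr2*, 4 had a CArG box. These were not 4 separate boxes, since overlapping windows shared the box CCATATATGG, and a further window held CCTTTTTTGG. In the window printed the box reads CCATATATGG and begins 72 bases before the start. A GGAA element of the kind ETS factors bind lies within 20 bases of the box, and CRE cores begin 111 and 55 bases before the start.

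The NR4A proteins are nuclear receptors whose activity is set by their amount and not by a ligand, and in macrophages they are induced by inflammatory signals. *Nr4a1* had an intensity of 1264 with vehicle and 870.3 with IR-61, which is 2.04-fold less after scaling, or −1.03 in log2 (SD between spots 0.16). Only 1.33% of all measured genes had a lower difference, and *Nr4a1* took rank 225 from the largest fall. It lies just past the 2-fold limit: with normexp background correction the difference was −0.97 and without scaling −0.54. *Nr4a2* was read by 2 probes that went apart. The probe with the brighter mean had an intensity of 129 with vehicle and 130.4 with IR-61, a log2 difference of −0.47, and the dimmer one had 80.7 and 131, a log2 difference of 0.21. The gap of −0.69 between the probes was larger than the SD between spots expected for it, 0.33, so the direction of *Nr4a2* is not settled by these arrays. The difference of the dimmer probe was itself within the SD between spots, 0.23. The paralog *Nr4a3* was not well above background on either array. The RXR partners of NR4A receptors were higher, *Rxrb* by 0.58 and the brighter probe of *Rxra* by 0.37, while the second probe of *Rxra* was at −0.13.

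The promoter of *Nr4a1*, the lower of the transcription factor members, is shown for its CRE cores.
Nr4a1 promoter, GRCm38.p6 chr15:101266596-101266845 (plus strand): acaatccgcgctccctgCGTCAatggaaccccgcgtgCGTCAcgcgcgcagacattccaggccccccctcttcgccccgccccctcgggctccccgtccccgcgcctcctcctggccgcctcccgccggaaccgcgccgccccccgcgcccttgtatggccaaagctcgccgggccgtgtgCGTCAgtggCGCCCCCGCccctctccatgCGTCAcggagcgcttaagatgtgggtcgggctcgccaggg
It held 4 CRE cores, all on the minus strand and therefore printed as CGTCA, beginning 233, 213, 69 and 40 bases before the start, an EGR site 60 bases before it and, across the start itself and beyond the printed part, an NF-κB site. *Nr4a2*, which is not printed, also had 4 CRE cores and an EGR site. A CArG box as searched was not among the letters of either window.

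The IER genes share a name for their early induction and not a common protein family. *Ier2*, a nuclear protein related in sequence to *Ier5*, had the lowest difference of the set. Its intensity was 251 with vehicle and 121 with IR-61, so that it was lower before scaling too, by −1.06 in log2. After scaling *Ier2* had 2.92-fold less signal, or −1.55 in log2 (SD between spots 0.23), and *Ier2* took rank 67 of 16885 genes from the largest fall, with 0.391% of genes below it. *Ier3* (IEX-1), an NF-κB target that affects survival of the cell under stress, had an intensity of 1531 with vehicle and 1239.8 with IR-61, a 1.73-fold reduction after scaling, or −0.79 in log2, and 2.61% of genes lay below it. *Ier5*, a partner of the phosphatase PP2A in the regulation of heat shock factor, was read by 2 probes that went apart, as those of *Nr4a2* did. The brighter probe had an intensity of 1441 with vehicle and 2440.2 with IR-61, a log2 difference of 0.27, and the dimmer one 664 and 723, a log2 difference of −0.37. Their gap of 0.64 was larger than its SD between spots, 0.25, and the mean over both probes was −0.047. The direction of *Ier5* is therefore not settled by these arrays either. Of the related genes, *Ier5l* was at −0.18 and *Ier3ip1* at −0.014, and without scaling both were higher.

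The promoter of *Ier3* is shown for the NF-κB site, since *Ier3* was among the members that were lower.
Ier3 promoter, GRCm38.p6 chr17:35821463-35821712 (plus strand): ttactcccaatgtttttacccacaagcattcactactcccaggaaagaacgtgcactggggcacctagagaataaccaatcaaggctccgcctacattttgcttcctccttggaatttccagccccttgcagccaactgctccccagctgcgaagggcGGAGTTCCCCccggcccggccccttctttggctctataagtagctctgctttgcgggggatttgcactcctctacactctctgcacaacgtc
The site reads GGGGAACTCC on the minus strand and begins 92 bases before the start, and it was the only match of the 6 kinds of motif in that window. The window of *Ier5*, the IER member that was not lower by its brighter probe, held none of these letters.

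*Zfp36* (tristetraprolin) and *Btg2* both shorten the life of mRNAs, *Zfp36* by binding AU-rich elements and *Btg2* by binding the deadenylase subunits of the CCR4-NOT complex, to which *Zfp36* also leads its targets. *Btg2* had an intensity of 1784 with vehicle and 984 with IR-61, which is 2.54-fold less after scaling, or −1.35 in log2 (SD between spots 0.16), at rank 107 from the largest fall with 0.628% of genes below it. *Zfp36* had an intensity of 1581 with vehicle and 1321 with IR-61, a 1.68-fold reduction after scaling, or −0.75 in log2 (SD between spots 0.095), with 3.10% of genes below it. Both were lower on the IR-61 array before scaling as well, *Btg2* by −0.86 and *Zfp36* by −0.26. Their relatives differed less or in the other direction. *Zfp36l1* was higher by 0.82 and *Zfp36l2* by 0.33, and the remaining genes around ZFP36, the p38 kinase gene *Mapk14*, the kinase genes *Mapkapk2* and *Mapkapk3*, whose products inactivate ZFP36, and *Elavl1*, whose product HuR competes for AU-rich elements, were between 0.14 and 0.61, so that by the brighter probes 6 of 6 were higher under each scaling. The dimmer probe of *Mapk14* was at −0.37 and that of *Elavl1* at 0.63. Among the BTG and TOB paralogs *Tob2* had the highest difference, 0.26, and *Btg1* the lowest, −0.15, by its brighter probe and 0.64 by the other. Scaling by the median put 2 of the 4 measured paralogs lower, and without scaling 0 were. The 11 genes of the CCR4-NOT complex lay between −0.52 for *Cnot11* and 0.39 for *Cnot1*, with a median of −0.0077, 6 lower and 5 higher. Without scaling 1 was lower and 10 were higher, with a median of 0.48, and the dimmer probe of *Cnot11* was at 0.27. Of 10 mRNAs known to be bound by ZFP36, *Ier3* among them, 8 were measured on both arrays, and at least 2-fold less signal was read for 4 of them: *Il1b* (−3.78), *Tnf* (−3.24), *Cxcl2* (−3.13) and *Cxcl1* (−1.40). The median of the 8 was −1.09, or −0.61 without scaling, where 3 were past 2-fold. *Il6* had the highest difference, 0.16. Of the other two, *Csf2* was not well above background on either array, and *Il23a* was at least 1.30-fold lower. Several of these mRNAs are among the inflammatory genes the study itself displays from the same arrays, and they are no independent evidence.

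The promoters of *Btg2* and *Zfp36* are shown because both genes were lower while their windows hold different elements.
Btg2 promoter, GRCm38.p6 chr1:134079156-134079405 (minus strand): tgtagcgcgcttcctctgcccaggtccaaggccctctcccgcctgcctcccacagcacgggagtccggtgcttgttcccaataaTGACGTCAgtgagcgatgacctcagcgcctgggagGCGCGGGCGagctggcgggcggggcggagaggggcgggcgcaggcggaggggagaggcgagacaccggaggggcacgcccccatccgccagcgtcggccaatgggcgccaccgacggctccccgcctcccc
Zfp36 promoter, GRCm38.p6 chr7:28379229-28379478 (minus strand): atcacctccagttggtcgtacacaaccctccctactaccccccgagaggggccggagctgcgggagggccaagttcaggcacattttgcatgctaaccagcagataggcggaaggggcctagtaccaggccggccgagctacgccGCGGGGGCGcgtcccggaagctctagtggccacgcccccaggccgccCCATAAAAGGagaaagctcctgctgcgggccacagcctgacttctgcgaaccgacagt
*Btg2* was the only member with a full CRE, 166 bases before the start, and it had an EGR site 131 bases before the start. *Zfp36* had a CArG box, CCATAAAAGG, 58 bases before the start and an EGR site 105 bases before it. CArG boxes were thus found both in *Zfp36*, with a lower signal, and in *Egr2*, with a slightly higher one. *Ier2* and *Egr1*, the members with the lowest and the highest difference, had no window to search. Of the 7 members with a window, 4 had a CRE core, 4 an EGR site, 2 an NF-κB site and 0 an AP-1 site.

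**Figure D2:**
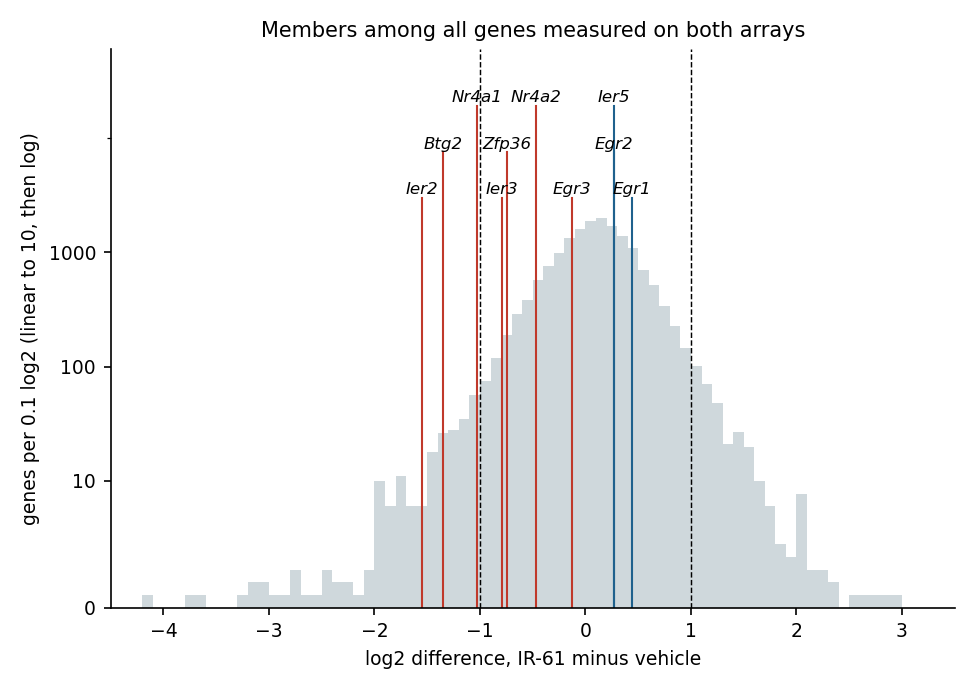
Log2 difference (IR-61 minus vehicle) of the 16885 genes measured on both arrays, as genes per bin of 0.1 on an axis that is linear up to 10 and logarithmic above, with the 10 members as lines (Egr2 and Ier5 coincide at 0.27). Dashed lines mark the 2-fold limit, and Ier2, Btg2 and Nr4a1 lie beyond the left one.

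The order of the members from the lowest to the highest difference was *Ier2* (−1.55), *Btg2* (−1.35), *Nr4a1* (−1.03), *Ier3* (−0.79), *Zfp36* (−0.75), *Nr4a2* (−0.47), *Egr3* (−0.13), *Egr2* (0.27), *Ier5* (0.27) and *Egr1* (0.44). *Nr4a2* and *Ier5* stand here by their brighter probes, and their other probes went the other way. Of the neighbours in this order, *Ier2* and *Btg2*, *Ier3* and *Zfp36*, *Nr4a2* and *Egr3*, *Egr3* and *Egr2*, and *Egr2* and *Ier5* differed by less than the SD between spots of their gap. The scanner error, about 0.20 for a single difference, is larger for a gap. By it the gaps of *Nr4a1* and *Ier3* (0.23), *Zfp36* and *Nr4a2* (0.27) and *Ier5* and *Egr1* (0.17) are not resolved either. The ends of the order lay further apart: *Egr1* lay 1.99 above *Ier2* on the log2 scale, a 3.97-fold gap with an SD between spots of 0.25. A constant that scales a whole array cancels in this gap, which was 2.01 with quantile normalization, 2.03 with loess and 1.60 with normexp. The genes whose pair of signals was nearest to that of *Ier2*, by Euclidean distance of the scaled log2 values over the 2 arrays, were *Mpp7* (distance 0.091), *Scd1* (0.17) and *Rrad* (0.22), with log2 differences of −1.43, −1.37 and −1.41. Those nearest to *Egr1* were *Acat1*, *Tmem263* and *Tbc1d5*, with differences between 0.43 and 0.44.

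**Figure D3:**
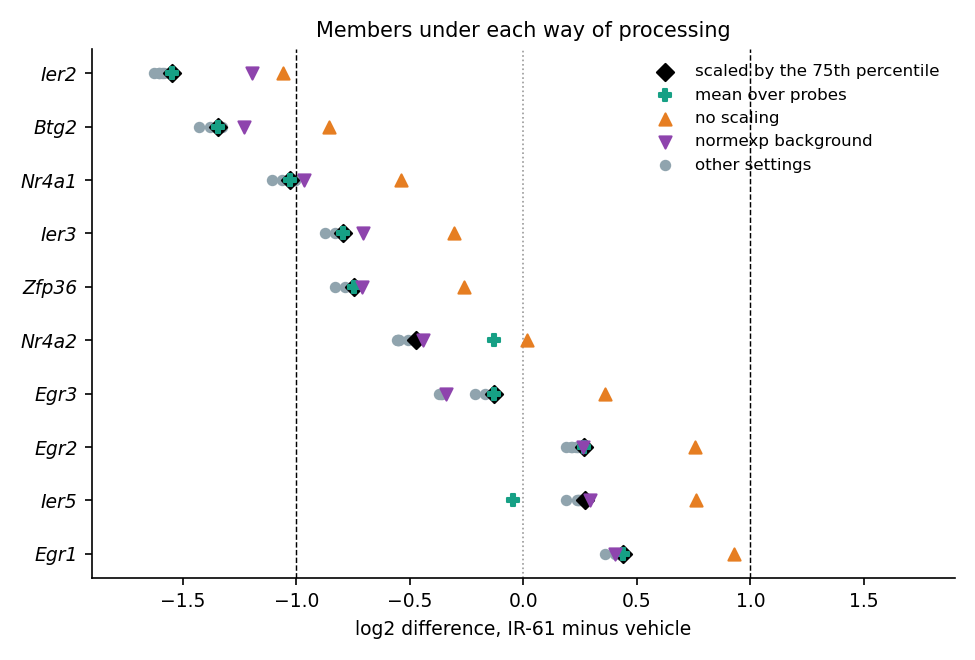
Log2 difference (IR-61 minus vehicle) of each member under 12 ways of processing the arrays, with dashed lines at the 2-fold limit. The 5 lowest members stay below 0 in every row, and leaving out the scaling moves each member to the right by about 0.49.

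The AP-1 factors and the MAP kinase phosphatases, the immediate early genes most like the members, were also split. Of 7 AP-1 factors, 3 had at least 2-fold less signal, *Fos* (−1.87), *Junb* (−1.71) and *Fosl2* (−1.05, and −1.01 by its dimmer probe), while *Jun* was higher by 0.42, close to *Egr1*. Their median was −0.18, with 5 lower and 2 higher, and 3 lower and 4 higher without scaling. With normexp and without scaling 2 of them were past 2-fold, and *Fosl2* was at −0.82 and −0.57. Of 8 MAP kinase phosphatases, which switch off ERK and p38, *Dusp4* (−1.19) and *Dusp6* (−1.08) were past 2-fold, though 1 of them with normexp and 0 without scaling, and *Dusp10* had the highest difference, 0.84, and the median was −0.26, or 0.23 without scaling. In a wider list of 31 other immediate early genes 4 were lower by 2-fold or more, led by *Plk3* (−1.26), and 1 was higher, *Plk2* (1.26). *Gem*, another of those lower, was at −1.19 by its brighter probe and −1.79 by its dimmer one. With scaling by the median, quantile normalization, loess and the deposited log2 values 5 were lower by 2-fold or more. The median of that list was −0.036, between those of the members and of all genes, with 16 lower and 15 higher. Without scaling 0 were lower and 4 higher by 2-fold or more, with 8 lower and 23 higher in all and a median of 0.45, and scaling by the median gave 20 lower and 11 higher. With 1 array per condition the differences between these lists were not tested.

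Of the factors known to act on immediate early genes, *Srf* itself was lower, and its part in the members was not tested. Its brighter probe had an intensity of 8642 with vehicle and 5824 with IR-61, a log2 difference of −1.06, and its second probe had −0.52. Without scaling the brighter probe was at −0.57. The *Srf* window in the same table held 2 CArG boxes, so *Srf* carries the element its own protein binds. By their brightest probes, the cofactors of SRF lay between −0.33 for *Elk1*, with −0.24 by its dimmer probe, and 0.68 for *Elk4*, whose other probes were at −0.11 and 0.022. Some dimmer probes lay below that range: those of *Mrtfb* were at −0.91 and 0.35, and the dimmest of *Elk3* was at −0.40. The median of the 6 genes, *Srf* included, was 0.057, or −0.025 with scaling by the median. By their brightest probes, 10 reference genes lay between −0.48 for *Ywhaz*, whose other probes were at −0.38 and −0.22, and 0.80 for *Hprt*. Their median was −0.15, or 0.34 without scaling. *Gapdh* was at −0.16 by its brightest probe, but its other probes reached down to −0.65, not far above *Zfp36*. *Ier2*, *Btg2*, *Nr4a1*, *Ier3* and *Zfp36* lay below all of these reference values.

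**Figure D4:**
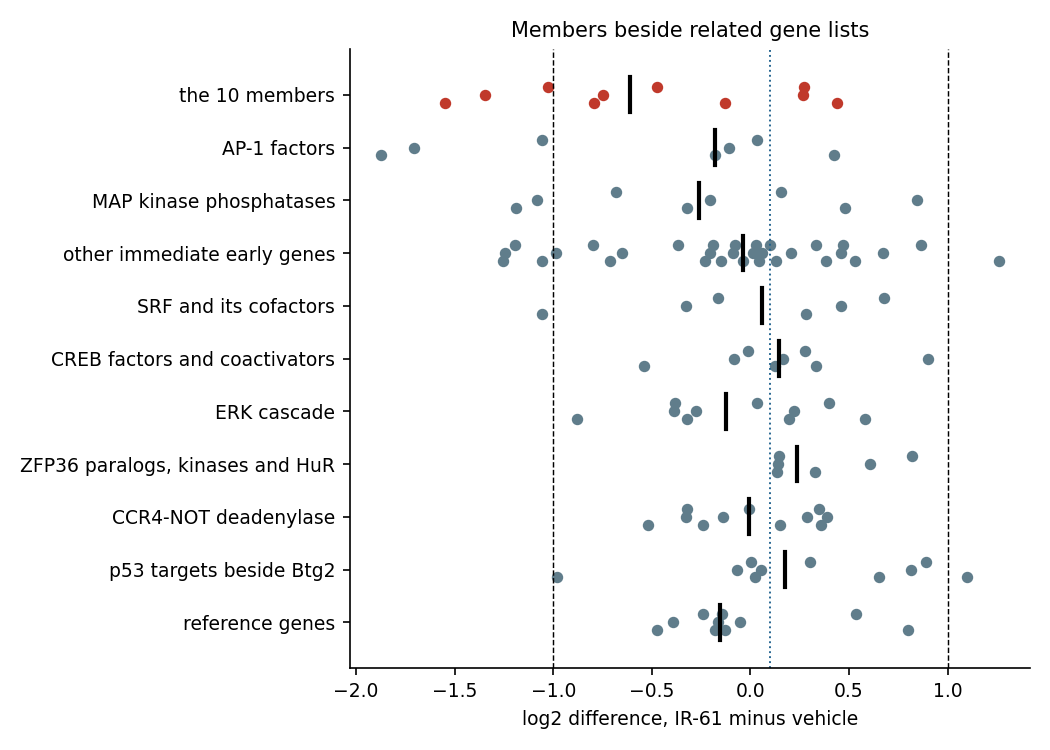
Log2 difference (IR-61 minus vehicle) of the members and of 10 related gene lists, 1 point per gene measured on both arrays, with a bar at the median of each list. The dotted line is the median of all measured genes, 0.10, and dashed lines mark the 2-fold limit. The median of the members, −0.61, is the lowest of the lists drawn, which leave out the mRNAs bound by ZFP36.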

How the data were processed

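RNA of 1 vehicle-treated and 1 IR-61-treated RAW264.7 culture was labelled with Cy3 and hybridized to an Agilent mouse array by the authors. They deposited the intensity of each spot as Agilent Feature Extraction gives it (version 11.0.1.1 in the file headers, 11.0.0.1 in the submitters' processing notes) on a linear scale, as the processed signal of that software. A further table holds log2 values that the authors deposited for each probe. How that table was made is not given in the sources used here; both of its columns have a lower quartile of 4.59, and they follow the scanner values with a Pearson r across probes of 0.9995 and 0.9988.

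After control and outlier spots had been dropped, log2 signals were averaged per probe and set relative to the 75th percentile of their array. Names came from the RefSeq accession of each probe, looked up unversioned in the GRCm38.p6 gene table, used for names and promoters only since the array design is on another assembly: 27224 of 39419 probes were named. A gene took its probe with the highest mean signal that was not saturated. All probes of the members are given, and a list gene stands by that probe where no other is mentioned. A probe not well above background on 1 array gives a bound. The number of arrays limits the precision, and no test was run. The steps were tested on simulated arrays with known changes. Python 3.11.15, numpy 2.4.6, pandas 2.3.3, statsmodels 0.14.6, matplotlib 3.10.9, R 4.3.3 and limma 3.58.1 were used.

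The members and lists were chosen with earlier results of these data known. Named were all members, the largest fall and rise of each list, the 3 genes nearest to the extreme members, and *Fos*, *Jun* and *Tnf* as references. The highest difference of the ERK cascade is not reported here. Other genes named beside them (further list genes, marker genes and second probes) were chosen after their values were seen. The alternatives were 5 other scalings, normexp background correction with an offset of 50 on the median signal, the deposited log2 values, the mean over probes, outlier spots kept, 2 other filters on dim probes, other fold limits, and probes counted in place of genes. For normexp, 4 spots of the IR-61 array with a local background above their own signal were given the median background, a choice made after seeing the data.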

Additional observations from a re-analysis of the deposited data

How the results depend on the processing

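No paired analysis was possible because the results come from no test and there is a single array on each side. With unscaled arrays the all-gene median went from 0.10 to 0.59 and the median of the members from −0.61 to −0.12, with 1 member lower by 2-fold or more (*Ier2*) in place of 3, and gave *Egr3* and *Nr4a2* differences of 0.36 and 0.015. Normexp moved the median of all genes to −0.030 and left 2 members lower by 2-fold or more. With a 1.5-fold limit 5 members were lower, and with a 3-fold limit 0 were. Under the other scalings, the deposited log2 values, the mean over probes, outlier spots kept, both filters on dim probes and probes in place of genes, 3 members were lower by 2-fold or more, and 0 were higher under any setting. Over 12 settings *Ier2* lay between −1.63 and −1.06, *Btg2* between −1.43 and −0.86, *Nr4a1* between −1.11 and −0.54, and *Egr1* between 0.36 and 0.93. The mean over probes gave *Ier5* −0.047 and *Nr4a2* −0.13. A value was taken as unmoved within the SD between spots. *Egr3*, near the lowest detected signal, is limited by its brightness, and was left out by the filter at a log2 intensity of 6.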

Other observations

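The CREB factors and coactivators and the ERK cascade, which carry signals to the immediate early genes, held no gene past 2-fold by their brightest probes after scaling. The 8 CREB genes had a median log2 difference of 0.15, from *Crebbp* at −0.54 to *Atf1* at 0.90 by its brighter probe and 0.091 by the other. The 10 genes of the ERK cascade had a median of −0.12, or 0.37 without scaling. The lowest of them by the brightest probes was *Rps6ka3*, a ribosomal S6 kinase downstream of ERK, at −0.88, with −0.64 by its second probe. The dimmer probe of *Braf* was lower still, at −1.59, while its brighter probe was at 0.032.

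*Btg2* is also a target of p53. Of 10 other p53 targets 2 were lower and 8 higher, with a median of 0.18, though with scaling by the median 5 were lower and 5 higher. *Phlda3* was 2.14-fold higher, the only one past 2-fold with the 75th percentile scaling, and *Sesn1* had a log2 difference of 0.89. *Cdkn1a*, the cyclin-dependent kinase inhibitor p21, had a difference of −0.98 by its brighter probe and 0.51 by its dimmer one, and with scaling by the median the brighter one was past 2-fold. *Btg2*, at −1.35, lay below each of these genes on the 2 arrays.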
